A study of Mus musculus with 6 samples.

Results

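The 10 genes described here are transcribed in response to interferon gamma and fall into 2 arms. The first attacks intracellular microbes and comprises the guanylate-binding genes Gbp2, Gbp3 and Gbp7 with the immunity-related GTPase Irgm1. The second prepares peptides for display on MHC class I and comprises the immunoproteasome subunits Psmb8 and Psmb9, the proteasome activator subunits Psme1 and Psme2, and the peptide transporter subunit Tap1. Irf1 encodes a transcription factor that acts upstream of both arms. The genes were chosen by name for these roles, and 10 of 10 were listed in every one of the 6 tables. Each table listed 12568 to 16249 genes, and 19361 genes were listed in at least 1 table.

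The tables hold Drop-seq counts from brain myeloid cells of female C57BL/6 mice of 2 to 3 months. Drop-seq captures single cells in droplets and counts the 3′ ends of their transcripts as unique molecular identifiers (UMIs) under a cell barcode. The metastasis libraries (2) came from unmodified mice 2 to 3 weeks after an injection into the heart of E0771, a mouse mammary carcinoma line that seeds the brain, and the naive libraries (2) from unmodified mice, with 1 brain in each of these 4 libraries. The Cx3cr1-null (Cx3cr1-/-) and Cx3cr1-heterozygous (Cx3cr1+/-) libraries, 1 each and each pooled from 2 brains, came from mice that also carried E0771 metastases; the labels do not describe the Cx3cr1 allele. Cells were enriched with Cd11b magnetic beads, and Cx3cr1 encodes the fractalkine receptor of microglia. Each table held 1000 barcodes, and a barcode was counted as microglial when it carried 3 or more UMIs of P2ry12, Tmem119, Siglech and Gpr34 together; the remaining barcodes are called other barcodes.

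Interferon gamma binds its receptor on the cell surface, and signalling through the Jak1 and Jak2 kinases leads to transcription from gamma-activated sites (GAS) in promoters. Irf1, an early target, binds interferon-stimulated response elements (ISRE) and carries the response on to later genes; type I interferons act through the same elements. Psmb8 and Psmb9 replace the constitutive catalytic subunits Psmb5 and Psmb6 in newly assembled proteasomes, Psme1 and Psme2 form the PA28 cap that speeds peptide release, and Tap1 with Tap2 carries the peptides into the endoplasmic reticulum.

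The promoters are shown because they hold both elements unevenly. Each line gives 140 bases of the RefSeq promoter table (GRCm38.p6), 5′ to 3′ in the direction of transcription, with matches on either strand in capitals; the motifs are TTTC, any 2 bases and TTTC again (the core of an ISRE), and TTCNNNGAA (the core of a GAS). The first group holds the ISRE core close to the start of the gene, on chromosome 3 for the guanylate-binding genes (chr3:142620543-142620682, chr3:142559924-142560063 and chr3:142530216-142530355, all + strand) and on chromosome 11 for Irgm1 (chr11:48871401-48871540, − strand).
Gbp2: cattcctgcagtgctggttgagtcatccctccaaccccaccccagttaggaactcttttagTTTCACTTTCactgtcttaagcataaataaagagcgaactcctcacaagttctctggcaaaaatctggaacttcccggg
Gbp3: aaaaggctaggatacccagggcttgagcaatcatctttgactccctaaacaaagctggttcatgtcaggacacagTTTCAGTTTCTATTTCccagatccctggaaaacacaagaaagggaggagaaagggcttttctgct
Gbp7: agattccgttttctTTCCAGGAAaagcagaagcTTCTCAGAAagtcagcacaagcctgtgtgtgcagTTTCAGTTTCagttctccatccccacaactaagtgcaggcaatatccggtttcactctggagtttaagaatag
Irgm1: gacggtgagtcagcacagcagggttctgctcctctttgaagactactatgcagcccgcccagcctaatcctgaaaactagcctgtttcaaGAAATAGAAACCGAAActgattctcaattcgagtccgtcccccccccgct
The second group holds the GAS core without an ISRE core, and comprises Irf1 on chromosome 11 (chr11:53769894-53770033, + strand) and Psmb8 on chromosome 17 (chr17:34198075-34198214, + strand).
Irf1: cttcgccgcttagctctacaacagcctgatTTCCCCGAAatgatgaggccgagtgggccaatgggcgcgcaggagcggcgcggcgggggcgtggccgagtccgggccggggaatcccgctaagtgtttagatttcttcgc
Psmb8: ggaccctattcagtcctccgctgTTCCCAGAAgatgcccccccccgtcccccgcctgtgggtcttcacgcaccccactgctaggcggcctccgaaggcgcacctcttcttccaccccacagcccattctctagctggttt
In windows of 300 bases (250 before to 50 after the start), 5 of 10 genes held an ISRE core (Gbp2, Gbp3, Gbp7, Irgm1 and Psme1), against 3.44% of 32851 promoter windows in the table. A GAS core was found for 3 of 10 genes (Gbp7, Irf1 and Psmb8) and in 3 of 13 windows, against 8.30% of all windows. The windows of Psmb9, Psme2 and Tap1 held neither string, which says only that these letters are not in these windows. Gbp7 held both, with the ISRE core beginning 53 bases before the start and GAS cores 106 and 87 bases before it; the Gbp2 match began 59 bases before the start.

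In the GENCODE annotation (GRCm38), the guanylate-binding genes lie in one cluster on chromosome 3, with Gbp7 at chr3:142530342-142550149, Gbp3 at chr3:142560026-142573209 and Gbp2 at chr3:142620602-142638008. Psmb9 (chr17:34181987-34187764), Tap1 (chr17:34187553-34197225) and Psmb8 (chr17:34197721-34201454) adjoin one another in the major histocompatibility complex, and Psmb9 and Tap1 overlap head to head at their 5′ ends. Psme1 (chr14:55578123-55581529) and Psme2 (chr14:55587441-55591113) also neighbour each other. Irf1 lies at chr11:53770014-53778374 and Irgm1 at chr11:48861968-48871683. Of the 451 words of 50 bases in the last 500 bases of each transcript, 249 of Psme2, 79 of Psme1 and 18 of Irgm1 also occur in other transcripts (for Psme2 in Psme2b and Gm7928), so counts of these 3 genes are uncertain where the counting split or dropped shared reads. The 3′ ends of Psme1 and Psmb8 overlap Emc9 and Gm20496 on the opposite strand.

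The libraries differed in depth, from 491621 to 2667099 UMIs, and in make-up. Microglial barcodes numbered 189 and 329 in metastasis 1 and 2, 785 in the null, 668 in the heterozygous, and 706 and 397 in naive 1 and 2, and held 620218, 267714, 1526098, 1920401, 1032777 and 945064 UMIs. Libraries shared at most 1 barcode sequence. Cx3cr1 itself had 62.9 CPM (counts per 1000000 UMIs of the class) in null microglia, with a 95% counting interval of 51.0 to 76.8, against 1332 CPM (1281 to 1385) in heterozygous microglia. Replicate 1 libraries were sequenced on a HiSeq 2500, and the others on a NextSeq 500. The names of the deposited tables for the 4 unmodified libraries give the opposite condition from their labels; the labels were followed, and the opposite assignment would turn the sign of each metastasis over naive value. Were replicate 2 alone exchanged, only its values would turn, the replicates would no longer oppose each other for Gbp2, and its microglial 62.9 and 68.8 CPM would stand against 11.6 and 11.2 CPM. E0771 markers (6 genes) summed to 638 and 1033 CPM in microglial and other barcodes of metastasis 1, and to 0 to 169 CPM in each class of the other libraries, with all 6 at 0 in microglial barcodes of metastasis 2. They thus mark metastasis 1 within replicate 1, whereas within replicate 2 they summed to 0 and 26.8 CPM in metastasis 2 and to 55.0 and 59.0 CPM in naive 2 and do not mark the library labelled metastasis. The 6 further microglial markers summed to 2883 CPM in microglial barcodes of metastasis 1 and to between 6269 and 15744 CPM in those of the other 5 libraries. Other barcodes are no pure class: the same 6 markers reached 14845 CPM in other barcodes of metastasis 2 and 12882 CPM in those of naive 1, against 1147 to 5292 CPM in the other 4 libraries.

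Gbp2 and Gbp3, GTPases that coat and break open pathogen vacuoles, varied more between libraries in microglia than the proteasome subunits did. Gbp2 had 62.9 and 11.2 CPM in metastasis 1 and 2 microglia, 71.4 CPM in null microglia, 52.1 CPM in heterozygous microglia, and 11.6 and 68.8 CPM in naive 1 and 2 microglia, from 39, 3, 109, 100, 12 and 65 UMIs. In 4 libraries the level was high and in 2 low, 1 of each condition being low, so metastasis and naive, as labelled, overlapped. Of the 65 UMIs in naive 2 microglia, 38 came from 1 barcode with 175 UMIs of endothelial markers, described below. Without barcodes of 5 or more endothelial UMIs, a choice made after the values were seen, naive 2 microglia had 30.5 CPM of Gbp2. With all barcodes, Gbp3 followed the same order, with 61.3 and 3.74 CPM in metastasis, 75.4 CPM in null, 44.3 CPM in heterozygous, and 21.3 and 70.9 CPM in naive microglia. The value of 3.74 CPM is a single UMI with an interval of 0.0946 to 20.8 CPM. Gbp7, a further GTPase of the family, had 131 and 85.9 CPM in metastasis, 193 CPM in null, 191 CPM in heterozygous, and 140.4 and 207 CPM in naive microglia. Both metastasis libraries lay below both naive libraries for Gbp7, with naive 1 only slightly above metastasis 1.

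Other barcodes showed the same low and high libraries for Gbp2. It had 54.7 and 4.47 CPM in metastasis, 75.6 CPM in null, 50.4 CPM in heterozygous, and 5.28 and 165 CPM in naive other barcodes, where both low values are 1 UMI. Without barcodes of 5 or more endothelial UMIs, naive 2 other barcodes had 42.2 CPM of Gbp2. Gbp3 had 37.1 and 26.8 CPM in metastasis, 84.0 CPM in null, 54.8 CPM in heterozygous, and 42.2 and 128 CPM in naive other barcodes. Gbp7 had 93.8 and 121 CPM in metastasis, 181 CPM in null, 173 CPM in heterozygous, and 189.9 and 310.0 CPM in naive other barcodes. Gbp3 and Gbp7 were thus lower in both metastasis libraries than in both naive ones, a pattern that 8.93% of all genes tested showed, while Gbp2 overlapped. The Gbp3 values of metastasis 2 and naive 1 rest on 6 and 8 UMIs. Their intervals, 9.83 to 58.3 and 18.2 to 83.2 CPM, overlap.

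Irgm1, a regulator of the GTPases that act on vacuoles and of autophagy, had 72.6 and 41.1 CPM in metastasis, 89.1 CPM in null, 78.1 CPM in heterozygous, and 22.3 and 63.5 CPM in naive microglia. In other barcodes it had 44.9 and 44.7 CPM in metastasis, 84.0 CPM in null, 57 CPM in heterozygous, and 31.7 and 94.5 CPM in naive libraries. Naive 1 was lowest in both classes, and the groups overlapped in both. Irf1 had 79.0 and 56.0 CPM in metastasis, 172 CPM in null, 146 CPM in heterozygous, and 81.3 and 145 CPM in naive microglia. Irf1 in other barcodes had 68.9 and 143 CPM in metastasis, 130.3 CPM in null, 121 CPM in heterozygous, and 68.6 and 112 CPM in naive libraries. The metastasis microglia lay below the naive microglia by a narrow margin at the closest pair, and other barcodes overlapped. Tap1 had 58.0 and 33.6 CPM in metastasis, 98.9 CPM in null, 93.2 CPM in heterozygous, and 32.0 and 70.9 CPM in naive microglia. In other barcodes Tap1 had 66.0 and 31.3 CPM in metastasis, 96.6 CPM in null, 105 CPM in heterozygous, and 31.7 and 94.5 CPM in naive libraries. Tap1 was highest in the libraries of the modified mice and naive 2, and metastasis and naive overlapped.

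**Figure D1:**
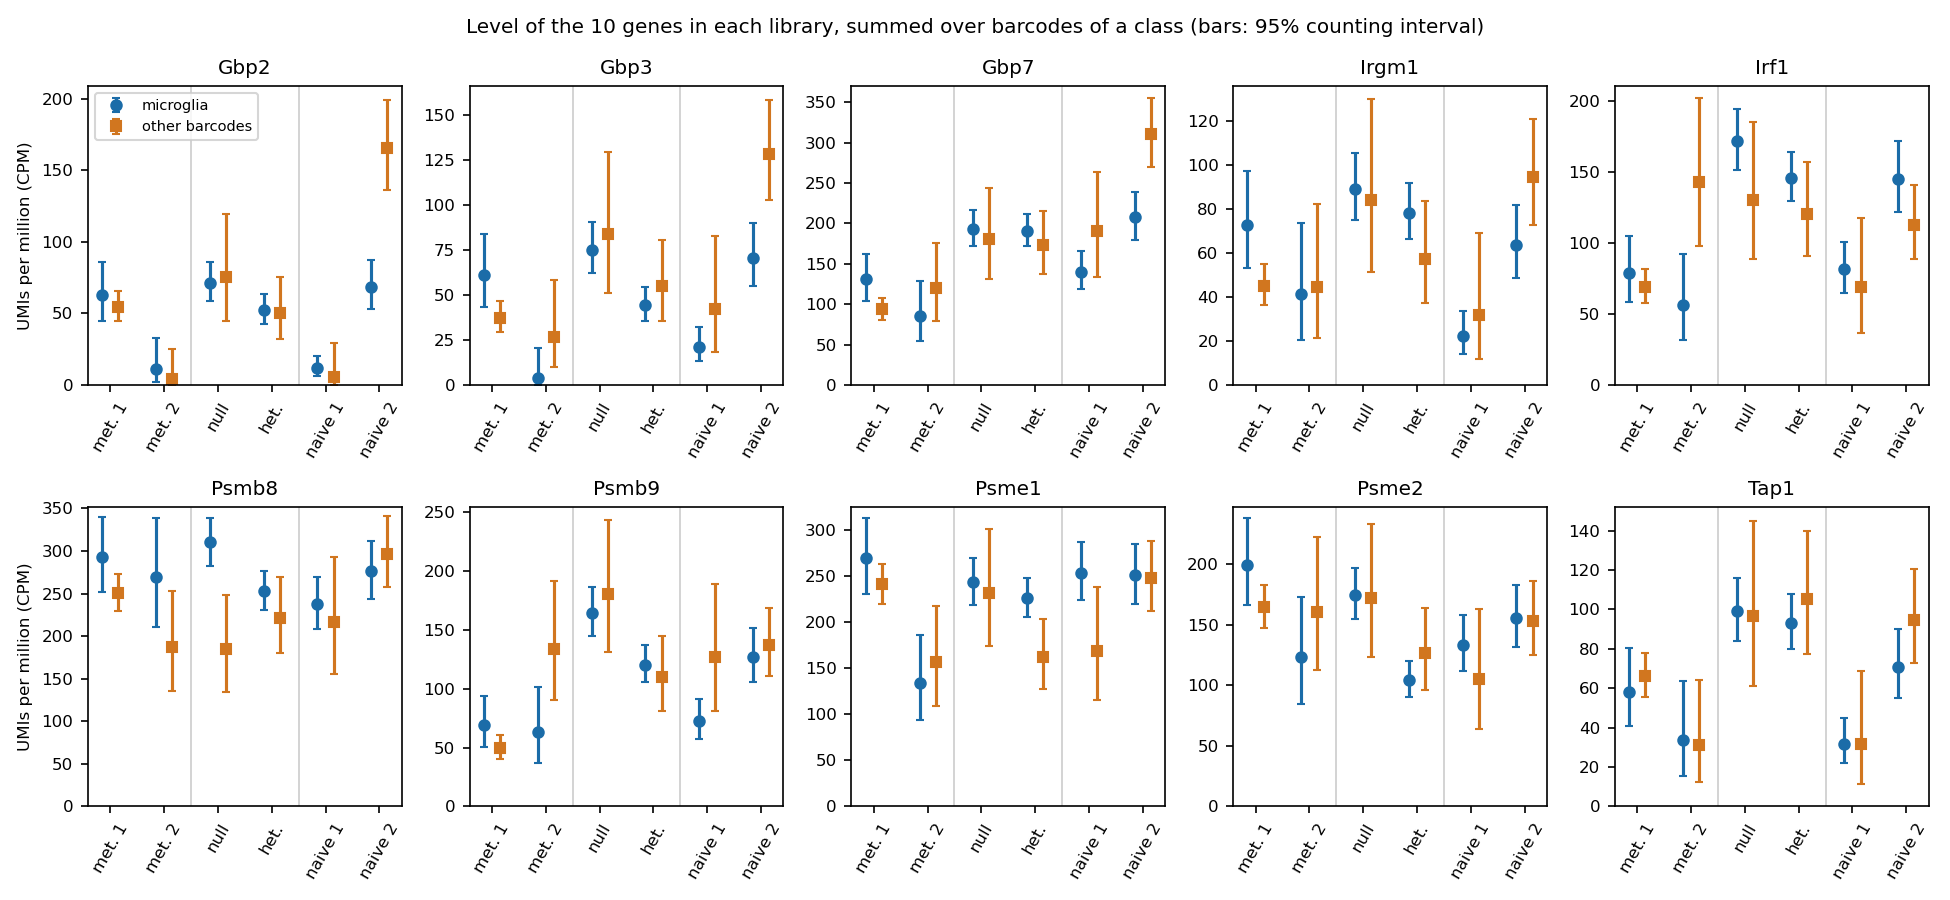
Level of each of the 10 genes in every library (CPM, linear axis), with microglial and other barcodes shown separately and exact 95% intervals for counting error as bars. Gbp2 spans 11.2 to 71.4 CPM over microglia of the 6 libraries, and Psmb8 spans 237 to 309.9 CPM.

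Psmb8, Psme1 and Psme2 stayed within narrower limits, and Psmb9 did not. Psmb8, the immunoproteasome's chymotrypsin-like subunit, had 293 and 269 CPM in metastasis, 309.9 CPM in null, 253 CPM in heterozygous, and 237 and 276 CPM in naive microglia. The highest library was 1.31 times the lowest, and metastasis and naive overlapped. In other barcodes Psmb8 had 251 and 188 CPM in metastasis, 185 CPM in null, 221 CPM in heterozygous, and 216 and 297 CPM in naive libraries. Psmb9, the subunit that removes the caspase-like activity of Psmb6, had 69.3 and 63.5 CPM in metastasis, 164 CPM in null, 120.3 CPM in heterozygous, and 72.6 and 127 CPM in naive microglia. Psmb9 in other barcodes had 49.8 and 134 CPM in metastasis, 181 CPM in null, 109.6 CPM in heterozygous, and 127 and 137 CPM in naive libraries. Psmb9 therefore moved more than Psmb8 between libraries and was lower in both metastasis than in both naive microglia, again narrowly at the closest pair, while its other barcodes overlapped.

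Psme1, the alpha subunit of PA28, had 269 and 134 CPM in metastasis, 243 CPM in null, 226 CPM in heterozygous, and 254 and 251 CPM in naive microglia. In other barcodes Psme1 had 241 and 156 CPM in metastasis, 231 CPM in null, 162 CPM in heterozygous, and 169 and 248 CPM in naive libraries. The low microglial value came from metastasis 2, and the groups overlapped in both classes. Psme2, the beta subunit, had 199.9 and 123 CPM in metastasis, 175 CPM in null, 105 CPM in heterozygous, and 134 and 156 CPM in naive microglia. In other barcodes Psme2 had 165 and 161 CPM in metastasis, 172 CPM in null, 127 CPM in heterozygous, and 106 and 154 CPM in naive libraries. Heterozygous microglia held the lowest Psme2, and only in other barcodes did both metastasis libraries exceed both naive libraries. The ratio of Psme1 to Psme2 UMIs in microglia was 1.35 and 1.09 in metastasis, 1.39 in null, 2.16 in heterozygous, and 1.90 and 1.61 in naive libraries.

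Over the 6 libraries, the highest microglial CPM was 4.0 times the lowest for Irgm1, 3.10 times for Tap1 and 3.06 times for Irf1. It was 2.59 times the lowest for Psmb9, 2.41 for Gbp7, 2.00 for Psme1 and 1.91 for Psme2. No such ratio is given for Gbp2 and Gbp3, whose lowest library held 3 UMIs and 1 UMI. For Gbp7, Irf1, Tap1 and Psmb9, the null, heterozygous and naive 2 microglia were the 3 highest of the 6. The same 3 had the highest median mitochondrial share per microglial barcode, at 18.8%, 18.9% and 16.8%, against 2.29% and 3.24% in metastasis 1 and 2 and 7.37% in naive 1; its part in these levels was not tested. Set against 9308 genes on a log2(CPM + 10) scale, where low genes vary more from counting error alone, 89.4% of genes had a smaller range over libraries than Gbp2 and 96.7% a smaller range than Gbp3. Psmb8 stood at the opposite end, with 2.12% of genes having a smaller range in microglia and 6.46% in other barcodes. For Psme1 and Psme2, 40.4% and 34.2% of genes had a smaller range in microglia, and 5.73% and 6.64% in other barcodes. Psmb9 did not share this, with 62.6% in microglia and 64.9% in other barcodes, beside 58.5% and 62.4% for Gbp7.

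None of the 10 genes passed the test between metastasis and naive microglia. edgeR's quasi-likelihood test over 8119 genes called 0 genes at an adjusted p of 0.05 (0% of those tested; 112 had an unadjusted p under 0.05, and DESeq2 also called 0), and the adjusted p was 1.00 for each member. The fitted log2 changes ran from −0.82 for Irf1 to 0.36 for Irgm1, with 3 above 0 and 7 below and a median of −0.33, beside a median of 0.003 over all genes tested. Gbp7 had −0.77 (SE 0.45) and Irf1 −0.82 (SE 0.46), and Gbp2 had −0.08 with an SE of 0.94. Psmb8 had 0.03 (SE 0.43), Psme2 0.05 (SE 0.44), Psme1 −0.44 (SE 0.49), Psmb9 −0.67 (SE 0.45) and Tap1 −0.21 (SE 0.53). Both metastasis libraries lay below both naive libraries for 3 of 10 genes (Gbp7, Irf1 and Psmb9), a pattern that 10.4% of all genes tested showed, and above both for none, which 16.1% of genes showed. With 2 libraries a group, an exact permutation test could not reach a p of 0.05, and fewer expressing cells and less RNA per cell cannot be told apart in sums over barcodes.

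With the libraries as labelled, several members ran in opposite directions within the sequencers. On the HiSeq 2500 (replicate 1), the log2 ratio of metastasis over naive microglia was 2.44 for Gbp2 (95% counting interval 1.47 to 3.51), 1.52 for Gbp3 (0.73 to 2.35) and 1.70 for Irgm1 (0.95 to 2.50). On the NextSeq 500 (replicate 2) it was −2.62 for Gbp2 (−4.93 to −1.01), −4.25 for Gbp3 (−9.57 to −1.72) and −0.63 for Irgm1 (−1.70 to 0.31). Tap1 showed the same turn, with 0.86 (0.14 to 1.59) in replicate 1 and −1.08 (−2.27 to −0.07) in replicate 2. For Gbp7, Irf1 and Psmb9 replicate 1 was near 0, at −0.10, −0.04 and −0.07, and the deficit came from replicate 2, at −1.27, −1.37 and −1.0. Psmb8 differed little in either, at 0.31 (0.02 to 0.59) and −0.04 (−0.44 to 0.34), whereas Psme1 had 0.09 and −0.90 and Psme2 0.58 and −0.34. The 10 genes summed gave 0.37 (0.23 to 0.50) in replicate 1 and −0.81 (−1.02 to −0.60) in replicate 2. Libraries of the same label differed as much: naive 2 over naive 1 microglia had 2.57 for Gbp2, and metastasis 2 over metastasis 1 had −2.49.

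**Figure D2:**
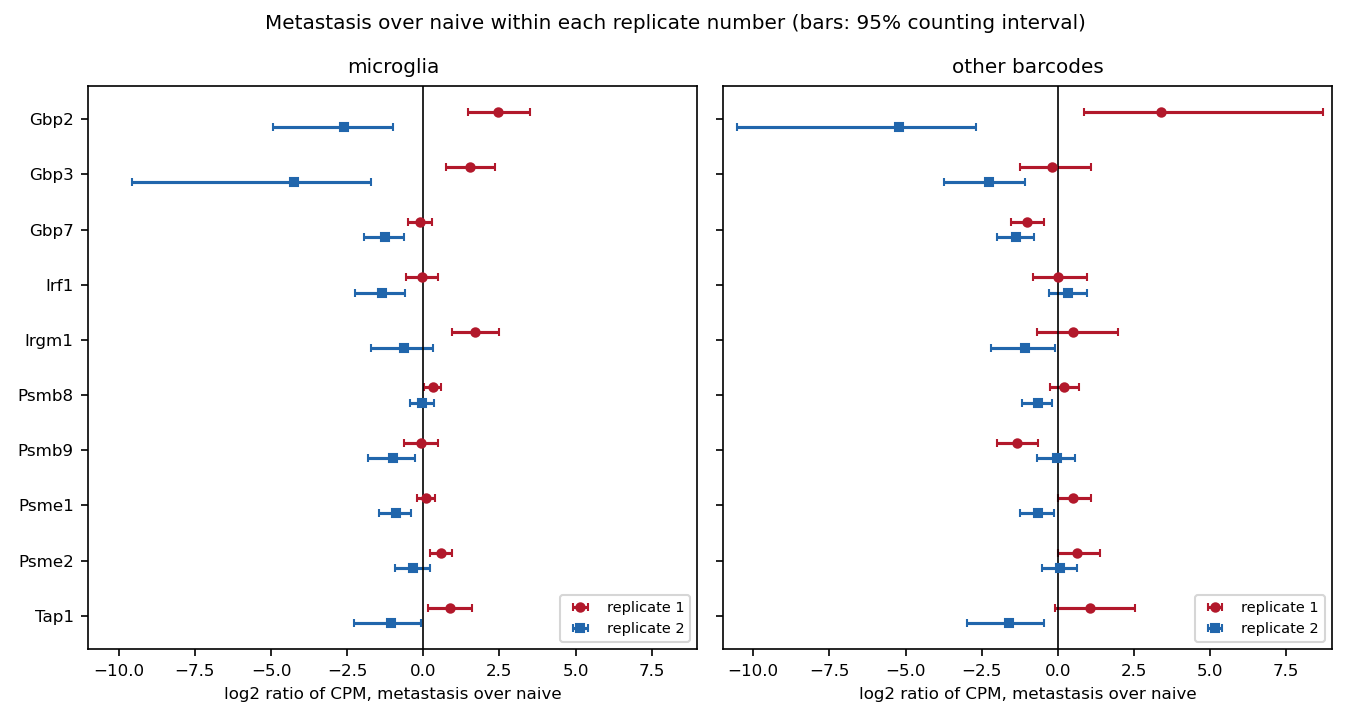
Log2 ratio of metastasis over naive for each of the 10 genes within replicate 1 (HiSeq 2500) and within replicate 2 (NextSeq 500), in microglial and in other barcodes; bars are 95% intervals for counting error. Gbp2 lies at 2.44 in replicate 1 and −2.62 in replicate 2 of microglia, and Psmb8 at 0.31 and −0.04.

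Other barcodes gave no called member either. edgeR called 0 of 6673 genes (0%; 71 had an unadjusted p under 0.05, and DESeq2 called 1), and 2 members had a fitted change above 0 and 8 below, with a median of −0.58 beside 0.01 over all genes tested. Gbp3 had −1.54 (SE 0.70), Gbp2 −1.52 (SE 1.25) and Gbp7 −1.37 (SE 0.61), each with an adjusted p of 1.00 from the same edgeR test. Psmb9 had −0.70, Irgm1 −0.67, Tap1 −0.50, Psmb8 −0.37 and Psme1 −0.21, while Irf1 had 0.05 and Psme2 0.18. Non-overlap placed Gbp3 and Gbp7 lower in metastasis (8.93% of all genes tested) and Psme2 higher (18% of all genes tested). Within replicates, Gbp2 had 3.37 (0.87 to 8.69) and −5.21 (−10.53 to −2.70), and Gbp7 had −1.02 (−1.54 to −0.46) and −1.36 (−2.00 to −0.78). Gbp7 in other barcodes was the guanylate-binding value that kept its sign in both replicates with intervals clear of 0. The 77 barcodes of metastasis 1 with 5 or more E0771 marker UMIs held 29.1% of that library's UMIs, and in them Gbp2 stood at 11.6 CPM, the guanylate-binding genes together at 63.1 CPM and the proteasome members together at 521 CPM; their part in the difference was not tested.

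The remaining genes of the interferon gamma pathway gave 0 called genes of 22 tested of 33 in metastasis over naive microglia, with a median of −0.29. Among the lowest was the GTPase Iigp1 at −1.26, and the highest were Gbp9 at 0.81 and Cd274, which encodes the checkpoint ligand PD-L1, at 1.02. In other barcodes 17 were tested, 0 were called and the median was −0.32, between Iigp1 at −2.43 and Igtp at −1.58 at the low end and the kinase Jak2 at 0.65 and the feedback inhibitor Socs1 at 0.97 at the high end. The constitutive 20S proteasome and its regulators stood on the other side of 0: 15 of 17 genes were above 0 in microglia, with a median of 0.31, and 16 of 17 in other barcodes, with a median of 0.77, again with 0 called in each. Psma7, a structural ring subunit, had 1.10 in microglia and 1.31 in other barcodes, and Psmb5, the constitutive counterpart of Psmb8, had −0.11 in microglia. This list summed to 4455 and 1823 CPM in metastasis 1 and 2 microglia, against 1860.0 and 2367 CPM in naive 1 and 2 microglia, so that metastasis 1 alone stood high. Type I interferon reporters, of which 9 of 10 were tested, had 0 called, with a median of 0.34 in microglia (Oasl2 −0.60, Irf7 −0.44, Mx1 0.85, Rsad2 0.89) and −0.99 in other barcodes, where 0 of 9 were above 0.

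The balance of the guanylate-binding arm and the proteasome arm did not separate metastasis from naive in microglia, while in other barcodes both metastasis libraries lay below both naive libraries. Summed UMIs of Gbp2, Gbp3 and Gbp7 over those of Psmb8, Psmb9, Psme1 and Psme2 gave 0.306 (95% interval 0.255 to 0.367) and 0.171 (0.109 to 0.258) in metastasis 1 and 2 microglia, against 0.249 (0.21 to 0.293) and 0.429 (0.376 to 0.489) in naive 1 and 2 microglia. The metastasis and naive intervals interleaved, with metastasis 1 above naive 1 and metastasis 2 below naive 2. Null and heterozygous microglia had 0.381 (0.344 to 0.422) and 0.408 (0.369 to 0.451), which differ by less than their counting error. Under 10% mitochondrial UMIs they were 0.251 (0.214 to 0.292) and 0.396 (0.35 to 0.446), whose intervals do not overlap. In other barcodes the ratio was 0.263 and 0.238 in metastasis 1 and 2, 0.443 in null, 0.449 in heterozygous, and 0.385 and 0.723 in naive 1 and 2. The intervals of metastasis 2 (0.159 to 0.348) and naive 1 (0.266 to 0.547) overlapped, and with other barcodes of 0 marker UMIs the ratio was 0.40 in metastasis 2 and 0.333 in naive 1. The guanylate-binding sum moved over a 3.44-fold range in microglia (101 CPM in metastasis 2 to 347 CPM in naive 2) and the proteasome sum over a 1.51-fold range (590.2 CPM in metastasis 2 to 892 CPM in null). The quantity is a ratio between 3′ counts of different genes and says nothing of protein amounts. How far it can be compared between libraries that differ in sequencer, depth and make-up was not tested.

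**Figure D3:**
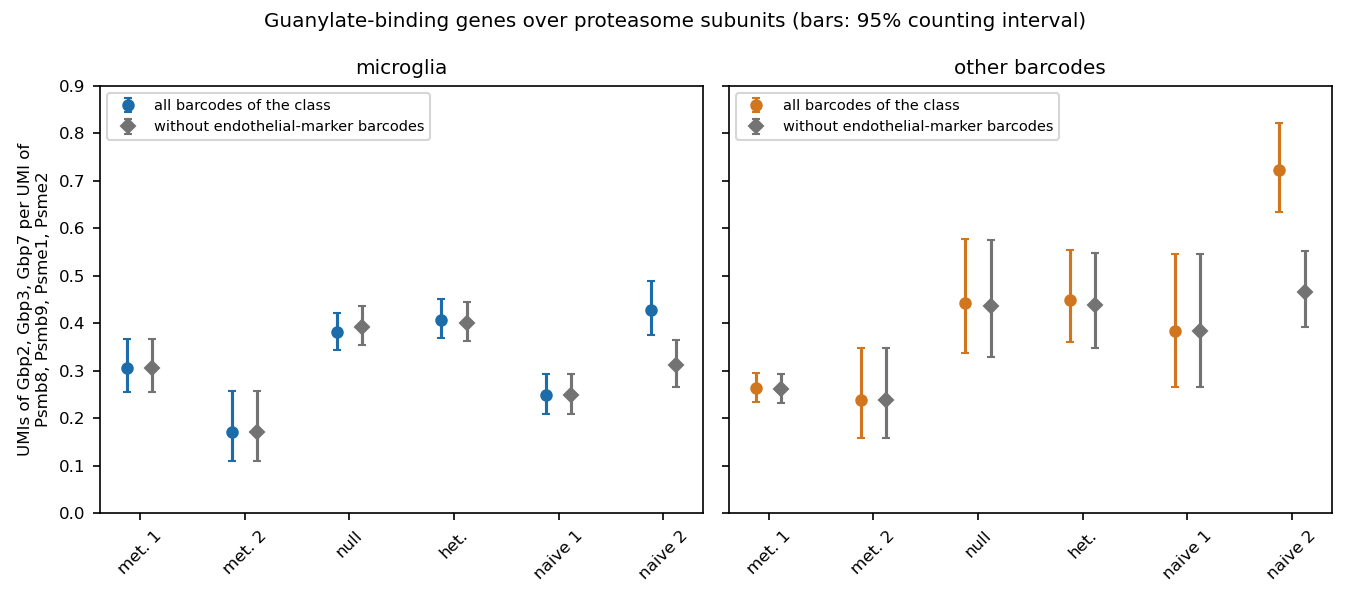
Ratio of guanylate-binding UMIs (Gbp2, Gbp3, Gbp7) to proteasome UMIs (Psmb8, Psmb9, Psme1, Psme2) in each library, for microglial and other barcodes, with 95% intervals for counting error. The ratio is lowest in metastasis 2 microglia at 0.171 and highest in naive 2 other barcodes at 0.723.

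Transcripts of the immunoproteasome pair were also set against those of its constitutive counterparts. These are 3′ counts and do not show the exchange of subunits in assembled proteasomes. Psmb8 and Psmb9 UMIs over Psmb5 and Psmb6 UMIs gave 0.907 and 1.35 in metastasis, 2.26 in null, 1.59 in heterozygous, and 1.34 and 1.59 in naive microglia. In other barcodes the same ratio was 0.616 and 1.33 in metastasis, 1.98 in null, 1.78 in heterozygous, and 1.55 and 2.13 in naive libraries. Metastasis 1 was lowest in both classes, where Psmb5 and Psmb6 together had 399.9 CPM in microglia and 488 CPM in other barcodes, against 210.3 to 253 CPM in microglia and 185 to 241 CPM in other barcodes of the other 5 libraries. The pair Psmb8 and Psmb9 in metastasis 1 microglia, at 363 CPM, lay within the range of the other libraries (309.8 to 474 CPM). Metastasis 1 was also the library with the E0771 markers given above, and their part in the ratio was not tested.

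In naive 2, 2 barcodes carried most of that library's Gbp2. They held 49921 and 23889 UMIs, with 85 and 38 Gbp2 UMIs and with 352 and 175 UMIs of 5 endothelial markers (Cldn5, Pecam1, Flt1, Ly6c1 and Slco1a4). They also held 57 and 24 UMIs of 5 mural markers (Acta2, Tagln, Myl9, Rgs5 and Vtn), and the 12 barcodes of naive 2 with 5 or more mural UMIs held 124 Gbp2 UMIs (70.1%). Together they had 123 of the library's 177 Gbp2 UMIs (69.5%), 44.8% of its Gbp3 and 28.1% of its Gbp7, from 4.55% of its UMIs. Their Gbp2 level was 1666 CPM (1385 to 1988), against 28.2 CPM (3.41 to 102) in the 16 other barcodes with 5 or more endothelial UMIs and 35.2 CPM in the remaining 982 barcodes. The proteasome members were less concentrated, with 11.7% of their UMIs in the 2 barcodes, at 2114 CPM against 745 CPM in the 982. The smaller of the 2 carried 3 microglial marker UMIs and so counted as microglial. One of the 2 barcode sequences ends in an undetermined base and its first 11 bases equal those of the other with 1 base missing; whether both come from 1 bead was not tested.

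**Figure D4:**
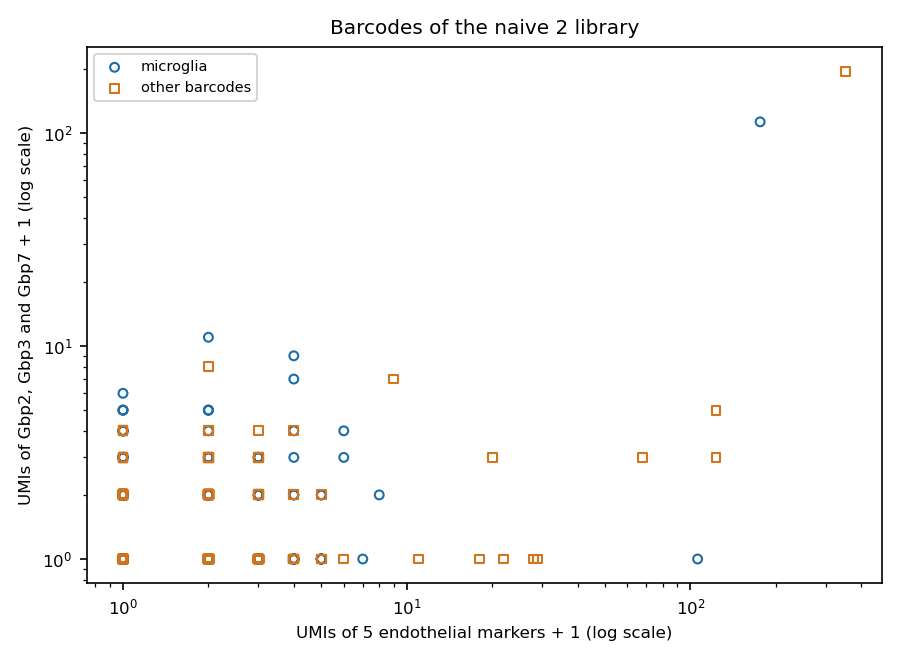
Each of the 1000 barcodes of naive 2, by its UMIs of 5 endothelial markers plus 1 (x axis, log scale) and its UMIs of Gbp2, Gbp3 and Gbp7 plus 1 (y axis, log scale); circles are microglial and squares other barcodes. The 2 barcodes that stand apart have 352 and 175 endothelial UMIs and 85 and 38 Gbp2 UMIs.

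Leaving out every barcode with 5 or more endothelial UMIs (2, 0, 7, 17, 0 and 18 barcodes in metastasis 1, metastasis 2, null, heterozygous, naive 1 and naive 2) was a choice made after these values were seen. It brought Gbp2 in naive 2 to 30.5 CPM in microglia and 42.2 CPM in other barcodes. The replicate 2 ratio of metastasis over naive then was −1.44 for Gbp2 in microglia and −3.24 in other barcodes, against −2.62 and −5.21 with all barcodes, and the replicate 1 ratios stayed at 2.44 and 3.38. The ratio of guanylate-binding to proteasome UMIs in naive 2 became 0.312 in microglia and 0.466 in other barcodes. Endothelial markers summed to 22.6 and 74.7 CPM in metastasis, 337 CPM in null, 508 CPM in heterozygous, and 13.6 and 629 CPM in naive microglia. Naive 1 and metastasis 1 microglia each held 14 endothelial UMIs, with Gbp2 at 11.6 and 62.9 CPM. Metastasis 2 microglia held 20 endothelial UMIs, with Gbp2 at 11.2 CPM. The part of the endothelial signal in the Gbp2 levels was not tested.

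Across the 2 classes of barcodes, no member passed the test. edgeR, with library as a block, called 457 of 9308 genes (4.91%), of which 162 (1.74%) were higher in microglia and 295 (3.17%) lower, and 0 of the 10 members were among them. Their log2 differences, microglia over other barcodes, ran from −0.36 to 0.22 with a median of −0.08, beside −0.04 over all genes tested. Psmb8 was higher in microglia in 5 of 6 libraries, with 0.22 (SE 0.12, adjusted p = 0.42 by the edgeR test), and Psme1 in 5 of 6 with 0.16 (SE 0.13). Gbp3 was higher in microglia in 1 of 6 libraries, with −0.36 (SE 0.21, adjusted p = 0.43), and Gbp2 in 4 of 6 with −0.34 (SE 0.21, adjusted p = 0.47). Irf1 had 0.10, Irgm1 0.05, Psme2 −0.02, Gbp7 −0.14, Psmb9 −0.18 and Tap1 −0.21. The edgeR test called 2 members under other settings, Gbp2 with barcodes under 10% mitochondrial UMIs (−0.99, adjusted p = 0.0416) and Gbp3 without metastasis 1 (−0.64, adjusted p = 0.0499). Over all genes the calls also moved, rising above 457 under 10% mitochondrial UMIs and ranging from 174 to 504 with 1 library left out. Shares of all genes tested are not given for these settings, and the 2 calls are not read as particular to the members. Other barcodes of metastasis 2 and naive 1 carried nearly as much of the further microglial markers as their microglial barcodes did. The classes there differed in other markers. NK and T cell markers summed to 33.6 CPM in microglial and 469 CPM in other barcodes of metastasis 2, and to 28.1 and 164 CPM in naive 1. The part of this make-up in the class differences of the members was not tested.

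Of 25 other interferon gamma pathway genes tested, 0 were called, with a median of −0.12, from Gbp4 at −0.89 (adjusted p = 0.109, edgeR) and Iigp1 at −0.74 to the GTPase Irgm2 at 0.32 and the peptide-trimming protease Erap1 at 0.36. The 17 constitutive proteasome genes had a median of 0.02, with 0 called. All 10 type I interferon reporters had a difference below 0, with a median of −0.23 and with Irf7 lowest at −0.52 (adjusted p = 0.0546, edgeR; higher in microglia in 0 of 6 libraries), and 0 of them passed the test.

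Null microglia had a higher CPM of each of the 10 genes than heterozygous microglia, by amounts that were small for most. With 1 library per genotype there is no replicate check, and the intervals cover counting error only. The log2 ratio of null over heterozygous microglia was 0.77 for Gbp3 (0.35 to 1.19) and 0.74 for Psme2 (0.47 to 1.01), the 2 members past 1.5-fold, which 5.05% of 7822 genes measured exceeded upward and 8.55% downward. Gbp2 had 0.46 (0.05 to 0.86), Psmb9 0.45 (0.19 to 0.72) and Psmb8 0.30 (0.11 to 0.48), so 5 of 10 intervals lay above 0, against 9.09% of all genes measured. Irf1 had 0.24, Irgm1 0.19, Psme1 0.11, Tap1 0.09 and Gbp7 0.02, with intervals that include 0. All 10 ratios were above 0, as were 42.6% of all genes measured, and the median was 0.27 beside −0.06 over all genes. Some signs depended on which barcodes were kept: Gbp7 was −0.25 under 10% and −0.027 under 25% mitochondrial UMIs, Psme1 was −0.22 and Irgm1 −0.0036 without the 5% deepest barcodes, and Gbp7 and Tap1 were each −0.12 with 5 or more marker UMIs. Under 10% mitochondrial UMIs the 4 proteasome members had larger ratios, at 1.14 for Psme2, 0.71 for Psmb9, 0.60 for Psme1 (0.35 to 0.85) and 0.57 for Psmb8. With these barcodes 4 members (Gbp3, Psmb9, Psme1 and Psme2) were past 1.5-fold. The share of all genes past 1.5-fold was computed with all barcodes only, so this count has no background to be read against.

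**Figure D5:**
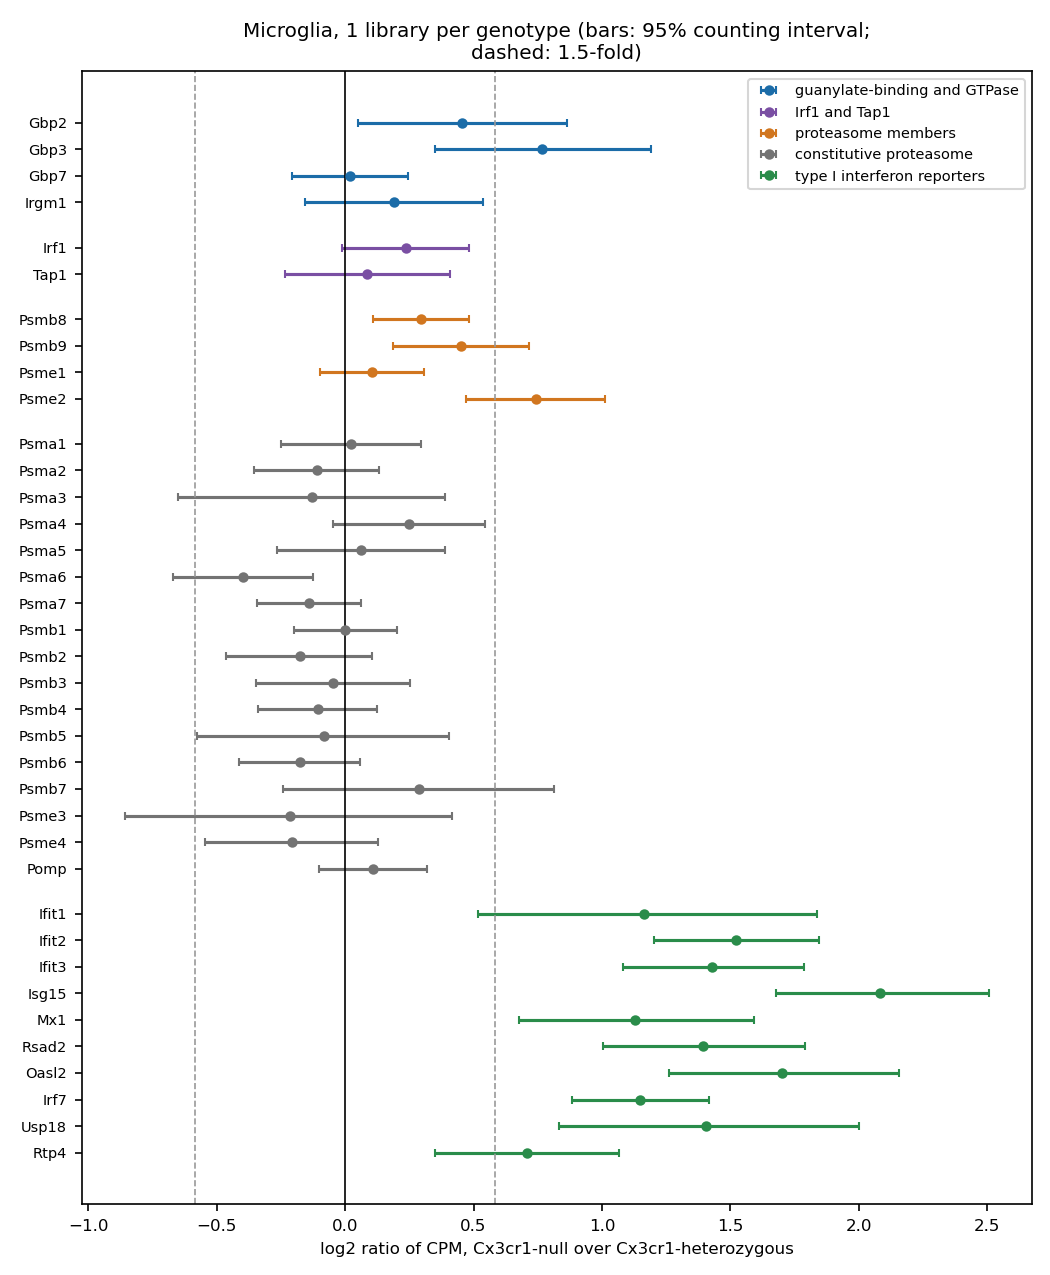
Log2 ratio of Cx3cr1-null over Cx3cr1-heterozygous microglia for the 10 genes and for the constitutive proteasome and type I interferon lists, with 95% intervals for counting error and dashed lines at 1.5-fold; 1 library per genotype. The 10 genes lie between 0.02 and 0.77, and the type I interferon reporters between 0.71 and 2.08.

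The lists around them differed in size of ratio. The 17 constitutive proteasome genes ran from −0.40 for Psma6 to 0.29 for Psmb7, with 6 above 0, 11 below and 0 past 1.5-fold. All 10 type I interferon reporters were past 1.5-fold, with a median of 1.40, from Rtp4 at 0.71 to the ubiquitin-like modifier Isg15 at 2.08. Of 22 other interferon gamma pathway genes measured, 16 were above 0 and 7 past 1.5-fold upward, with Gbp6 at 1.69 and the chemokine Cxcl9 at 1.53 highest and Gbp9 at −0.58 and Erap1 at −0.27 lowest. Marker levels of other cells also differed between the 2 libraries: neutrophil markers summed to 1131 CPM in null and 497 CPM in heterozygous microglia, NK and T cell markers to 121 and 46.3 CPM, monocyte and macrophage markers to 3106 and 2105 CPM, endothelial markers to 337 and 508 CPM, and ependymal and choroid plexus markers to 1027 and 1987 CPM. Their part in the ratios was not tested.

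In other barcodes, 7 of 10 members had the 50 UMIs over both libraries needed for a ratio, with Gbp2, Gbp3 and Irgm1 below that count. Psmb9 had 0.72 (0.10 to 1.34) and was the 1 member past 1.5-fold, which 7.85% of 2547 genes measured exceeded upward. Psme1 had 0.51, Psme2 0.44, Irf1 0.11, Gbp7 0.06, Tap1 −0.12 and Psmb8 −0.26, with intervals that include 0, so 1 of 7 intervals lay above 0, against 8.44% of all genes measured. The median was 0.11, with 5 of 7 above 0, as were 49.8% of all genes measured.

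The genes whose levels over the 12 sums (6 libraries by 2 classes) most resembled the mean of the guanylate-binding members were H2-Q7 and Oas1a (Pearson r of 0.95 each), Usp18 (0.94), and Isg20 and Xaf1 (0.93 each), among 8988 genes. For the mean of the proteasome members they were Oas3 (0.88), Oas1a, Dck and Tor3a (0.87 each) and I830012O16Rik (0.85), among 8987 genes. The 2 means themselves had an r of 0.82. Of the remaining members, Tap1 (0.85) and Irgm1 (0.81) were closest to the guanylate-binding mean, and Psmb8 and Psme2 (0.36 each) farthest from it. These values are descriptions on log2(CPM + 10), since the 12 sums share libraries, depth and make-up.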

How the data were processed

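The values are UMI counts per gene and barcode as deposited by the authors, 1000 barcodes a library; no column was left unused. STAR, Seurat and the mm10 build are named, without role or version, per the submitters' processing notes; the gene annotation, strand setting, barcode choice and filters were not given in the sources used here. The tables' values are raw whole-number counts with a different total in each library.

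Groups follow the labels. Each library's counts were summed over microglial barcodes (3 or more UMIs of 4 marker genes) and over the remaining barcodes, and CPM were taken over all UMIs of the class, mitochondrial ones included. Metastasis over naive was tested over 2 and 2 libraries, and microglia over other barcodes over 6 libraries with library as a block, by edgeR 4.0.16 (R 4.3.3) with TMM factors, filterByExpr, the quasi-likelihood test and Benjamini-Hochberg adjustment over all genes tested; the 4 marker genes were left out of the genes tested. DESeq2 1.42.0 was an alternative. The edgeR script was tested on simulated data. For metastasis over naive the p-values measure the spread between libraries, which are 1 brain each in the unmodified mice. For microglia over other barcodes they measure the spread between libraries of the difference between the classes. The null and heterozygous libraries in that test each pool 2 brains. Null over heterozygous has 1 library each and no test: genes with 50 or more UMIs over both were compared by CPM. Intervals are exact 95% intervals and cover counting error only. Doublets were not removed; the 5% deepest barcodes were left out as an alternative. Replicate numbers 1 and 2 each mark a shared sequencer in the labels, and deviations of same-numbered libraries from their group means correlated at −0.36 over 8123 genes in microglia and −0.33 over 6677 in other barcodes.

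The members and lists were chosen with earlier results of these data known. Every member is named in every library; from each list the 2 highest and 2 lowest log2 values could be named (1 gene so chosen is not reported here), and the 5 genes most like each arm's mean among genes with 100 or more UMIs. Positions come from GENCODE and promoters from RefSeq. Alternatives were the tool, the count filter, the replicate block, each library left out, mitochondrial limits of 10% and 25%, a stricter or looser marker rule, the deepest barcodes and endothelial barcodes; Python 3.11.15, pandas 2.3.3 and scipy 1.17.1 were used for tables.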

Additional observations from a re-analysis of the deposited data

Results flagged for a closer look

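Irf1 was flagged because its metastasis over naive log2 ratio pointed one way in both replicates of microglia and the other way in both replicates of other barcodes. In microglia it was −0.042 in replicate 1 and −1.37 in replicate 2, and in other barcodes it was 0.0065 in replicate 1 and 0.35 in replicate 2. Both replicate 1 values and the replicate 2 value of other barcodes have counting intervals that include 0, and the difference between the classes was not tested.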

How the results depend on the processing

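In metastasis over naive no member was called under any setting run. The number of genes called in microglia was 58 without a filter on low counts, and ranged from 0 to 4 with 1 library left out, 4 without naive 2. In other barcodes it was 1 with DESeq2, 49 without a filter and 7 under 25% mitochondrial UMIs, and ranged from 0 to 45 with 1 library left out (1 without metastasis 1, 45 without naive 1). With the replicate block 0 genes were called in each class; the block changed no call among the members. Crossing the replicate numbers, added after seeing the data, called 4 genes in microglia and 0 in other barcodes. Between microglia and other barcodes, 457 calls became 178 with DESeq2, 749 under 10% mitochondrial UMIs, 695 with 5 or more marker UMIs, 151 with other barcodes of 0 marker UMIs, 213 without the 5% deepest barcodes and 264 without endothelial barcodes, and ranged from 174 (without naive 2) to 504 with 1 library left out, 222 without the heterozygous library.

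Several directions depended on the setting. In metastasis over naive microglia, Gbp2 (−0.08) was 0.037 with the replicate block, 0.10 under 25% mitochondrial UMIs, 1.10 with 5 or more marker UMIs, 1.11 without the deepest barcodes and 0.81 without endothelial barcodes; Gbp3 was 0.43 and Tap1 0.51 without the deepest barcodes; Psmb8 was −0.11 under 10% and −0.041 under 25% mitochondrial UMIs, and Psme2 −0.040 under 10%. With 1 library left out, Gbp2 ranged from −1.80 to 1.47, Gbp3 from −3.56 to 0.44, Irgm1 from −0.17 to 1.14, Psme2 from −0.28 to 0.28 and Tap1 from −0.63 to 0.31. In other barcodes, Gbp2 was 0.59 without the deepest and 0.21 without endothelial barcodes; Irf1 was −0.0012 under 10% and −0.34 under 25% mitochondrial UMIs, −0.17 with 5 or more marker UMIs and −0.054 with crossed numbers; without the deepest barcodes Psmb8 was 0.031 and Psme1 0.0097, and Psme2 was −0.63 under 10% mitochondrial UMIs. With 1 library left out, Gbp2 ranged from −4.43 to 2.28, Irf1 from −0.54 to 0.46, Irgm1 from −1.11 to 0.27, Psme1 from −0.58 to 0.084 and Tap1 from −1.25 to 0.42. In microglia over other barcodes, Gbp2 was 0.14 against barcodes of 0 marker UMIs and 0.0056 without endothelial barcodes; Irgm1 was −0.25 under 10% mitochondrial UMIs and −0.10 with 5 or more marker UMIs; Psmb9 was 0.049 with 5 or more marker UMIs; Psme2 was 0.026 without a filter, 0.11 under 25% mitochondrial UMIs and 0.057 against barcodes of 0 marker UMIs. With 1 library left out, Gbp2 ranged from −0.53 to 0.089, Irgm1 from −0.12 to 0.26 and Psme2 from −0.084 to 0.067.

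The null over heterozygous ratio of the summed members (0.28 in microglia) was 0.46 under 10% mitochondrial UMIs and 0.20 without the deepest barcodes; in other barcodes (0.27) it was −0.042 under 10%. The guanylate-binding to proteasome ratio became 0.251 under 10% mitochondrial UMIs and 0.490 without the deepest barcodes in null microglia, 0.467 without the deepest in heterozygous microglia, and 0.210 under 10% in naive 1 microglia. In naive 2 microglia it was 0.266 with 5 or more marker UMIs, 0.370 without the deepest and 0.312 without endothelial barcodes. In other barcodes it was 0.303 in metastasis 1 without the deepest, 0.259 in heterozygous under 10% mitochondrial UMIs, and 0.546 and 0.466 in naive 2 without the deepest and without endothelial barcodes. The cause of these shifts was not tested. Metastasis 2 limits the depth most, with 267714 microglial UMIs.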
